A study of Mus musculus with 20 samples.

Results

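The genes described here are the corticosteroid receptors and the proteins that hold, fold, supply or assist them: Nr3c1, Nr3c2, Fkbp5, Fkbp4, Hsd11b1, Hsp90aa1, Hsp90ab1, Ptges3, Ncoa1 and Ncoa2. They were chosen by name, and a probe set was used where the annotation gave it that symbol alone. This found 9 of the 10 genes in 10 probe sets, out of 22180 genes measured in the same way. Hsp90ab1 was not analysed here. RNA from the spinal cord of C57BL/6J mice aged 6 to 10 weeks was hybridised to whole-transcript microarrays, with 5 arrays in each of 4 groups. The groups were wt SAL, wt DEX, Tg SAL and Tg DEX, where SAL is saline and DEX is dexamethasone (Dex), a synthetic glucocorticoid, given at 4 mg/kg into the peritoneum 4 h before the cord was taken. The Tg arrays were read as those of Cx30GRko mice and the wt arrays as those of control mice, because the series describes these as its only genotypes. Cx30GRko denotes a loss of the glucocorticoid receptor gene by Cre recombination tied to connexin 30, a gap junction protein of astrocytes, so the other cell types of the cord were not its target, and whether they kept the receptor was not measured. The series also states that Cre recombination was most efficient in the cord. Pooling of animals is not mentioned in the labels.

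Nr3c1 encodes the glucocorticoid receptor and Nr3c2 the mineralocorticoid receptor, which binds corticosterone tightly as well as aldosterone. In the absence of hormone the glucocorticoid receptor is held in the cytoplasm by the chaperone Hsp90, the co-chaperone p23 and an immunophilin of the FK506-binding family. FKBP51, the product of Fkbp5, keeps hormone affinity low, and its exchange for FKBP52, the product of Fkbp4, favours transport to the nucleus, where coactivators such as SRC-1 (Ncoa1) and GRIP1 (Ncoa2) are recruited. Fkbp5 is itself transcribed under control of the activated receptor, which forms a short feedback loop, and its transcript is widely read as a marker of receptor activity in brain tissue.

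The promoter stretches below are shown because Fkbp5 and Fkbp4 encode immunophilins with opposing roles at the receptor, of which the first passed the test for a Dex effect in replicates 1 to 3 and the second passed in no array set, and because Sgk1, a kinase gene long known as a receptor target, carries the palindrome that the receptor binds. Sequences are from RefSeq (GRCm38.p6), each 5′ to 3′ on the strand of its gene. Those of Fkbp5 (chr17:28486150-28486399, minus strand) and Fkbp4 (chr6:128438657-128438906, minus strand) are the 250 bases before the transcript start, and that of Sgk1 (chr10:21993693-21993723, plus strand) is a stretch of 31 bases from the same kind of window. Capitals mark CCAAT boxes in Fkbp5, the heat shock core GAANNTTC and a CCAAT box in Fkbp4, and, in Sgk1, the palindrome made of AGAACA, 3 free bases and TGTTCT, with its free bases in lower case.
Fkbp5: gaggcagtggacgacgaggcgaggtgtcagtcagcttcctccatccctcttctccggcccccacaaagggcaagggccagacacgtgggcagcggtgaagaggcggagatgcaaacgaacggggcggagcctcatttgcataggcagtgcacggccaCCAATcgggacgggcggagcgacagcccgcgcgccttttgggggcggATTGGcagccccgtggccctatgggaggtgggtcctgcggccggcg
Fkbp4: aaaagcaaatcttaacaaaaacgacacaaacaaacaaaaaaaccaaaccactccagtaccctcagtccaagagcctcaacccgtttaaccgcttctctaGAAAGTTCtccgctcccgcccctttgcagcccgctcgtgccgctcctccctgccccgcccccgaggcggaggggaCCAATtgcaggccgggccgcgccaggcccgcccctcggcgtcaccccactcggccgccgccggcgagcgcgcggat
Sgk1: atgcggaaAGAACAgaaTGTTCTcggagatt

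A window of 250 bases was matched for 6 of the 9 measured genes (Nr3c2, Fkbp5, Fkbp4, Hsd11b1, Ptges3 and Ncoa1), and both strands were searched. None of the 6 windows held the palindrome, which stood in 3 of 32851 promoter windows (0.00913%), nor its hexamer AGAACA, found in 16.1% of windows. The heat shock core GAANNTTC stood in the windows of Nr3c2 and Fkbp4, and in 6.69% of all windows. In Fkbp4 it began 151 bases before the start. CCAAT, present in 33.8% of windows, stood 2 times in Fkbp5, 93 and 46 bases before the start and on opposite strands, and 1 time in Fkbp4, 76 bases before it. These motifs overlap only in that AGAACA is a part of the palindrome. A match describes letters and not a bound site, and the receptor sites known for Fkbp5 lie largely in its introns, outside this window.

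Signals are given on the log2 scale, so a difference of 1 is a doubling, and signals of different probe sets are not read as relative amounts of their transcripts. The deposited values had been centred, for each probe set, within the 12 arrays of replicates 1 to 3 and within the 8 arrays of replicates 4 and 5, so these array sets are described separately and a fit over all 20 arrays carries the set as a block. Over all genes the median residual SD was 0.21 in the first set and 0.37 in the second. The arrays Tg DEX 4 and Tg DEX 5 stood apart: their SDs across probe sets were 1.95 and 1.81, against 1.66 to 1.71 in the other 18. The cord genes Hoxa5, Hoxb8, Hoxc8 and Hoxc10 and the astrocyte genes Gfap, Aqp4 and Gjb6 (connexin 30) had mean signals above the median of all genes. A gene is called here where limma's moderated test gave an adjusted p (Benjamini-Hochberg over 22180 genes, two-sided) under 0.05, and errors of differences are standard errors.

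Fkbp5 was the only measured gene of the group that rose after Dex in replicates 1 to 3, with effects of 1.23 in wt and 1.13 in Tg. In wt SAL replicates 1, 2 and 3 its signals were 5.48, 5.71 and 5.60, and in wt DEX they were 7.17, 6.72 and 6.59. In Tg SAL the signals were 5.75, 5.51 and 5.75, and in Tg DEX they were 6.56, 6.87 and 6.99. All 6 Dex arrays were above all 6 saline arrays, a separation with Dex higher that held for 0.685% of all genes. The mean Dex effect was 1.18 ± 0.12 on the log2 scale (2.27-fold, 95% interval 0.92 to 1.44, limma adjusted p = 0.000973), where 0.455% of genes were called.

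The rise was 1.23 ± 0.17 in wt (2.34-fold, limma adjusted p = 0.0130; 0.171% of genes called). In Tg it was 1.13 ± 0.17 (2.20-fold) and missed the threshold with a limma adjusted p of 0.0561, where 0.0316% of genes were called. The difference between these effects was -0.09, with a 95% interval of -0.61 to 0.42 (limma adjusted p = 0.976), so a loss of up to 0.61 in Tg was within the error. Within replicates 1 to 3, saline signals of Fkbp5 were 5.60 ± 0.12 in wt and 5.67 ± 0.14 in Tg (SD, n = 3 each), and Dex signals were 6.82 ± 0.31 and 6.81 ± 0.22. Leaving out each of the 12 arrays in turn kept the mean Dex effect between 1.10 and 1.24.

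Replicates 4 and 5 gave no such separation. Fkbp5 signals there were 6.15 and 6.58 in wt SAL, 6.29 and 5.75 in wt DEX, 6.13 and 6.14 in Tg SAL, and 5.96 and 6.80 in Tg DEX. The highest wt array was a saline array and the lowest of all 8 was a Dex array, and the treatments overlapped. The mean Dex effect was -0.05 ± 0.26 (95% interval -0.66 to 0.56, limma adjusted p = 0.971). For the mean Dex effect limma called none of the 22180 genes (0%) in these 8 arrays, where 10% of genes had an unadjusted p under 0.05.

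**Figure D1:**
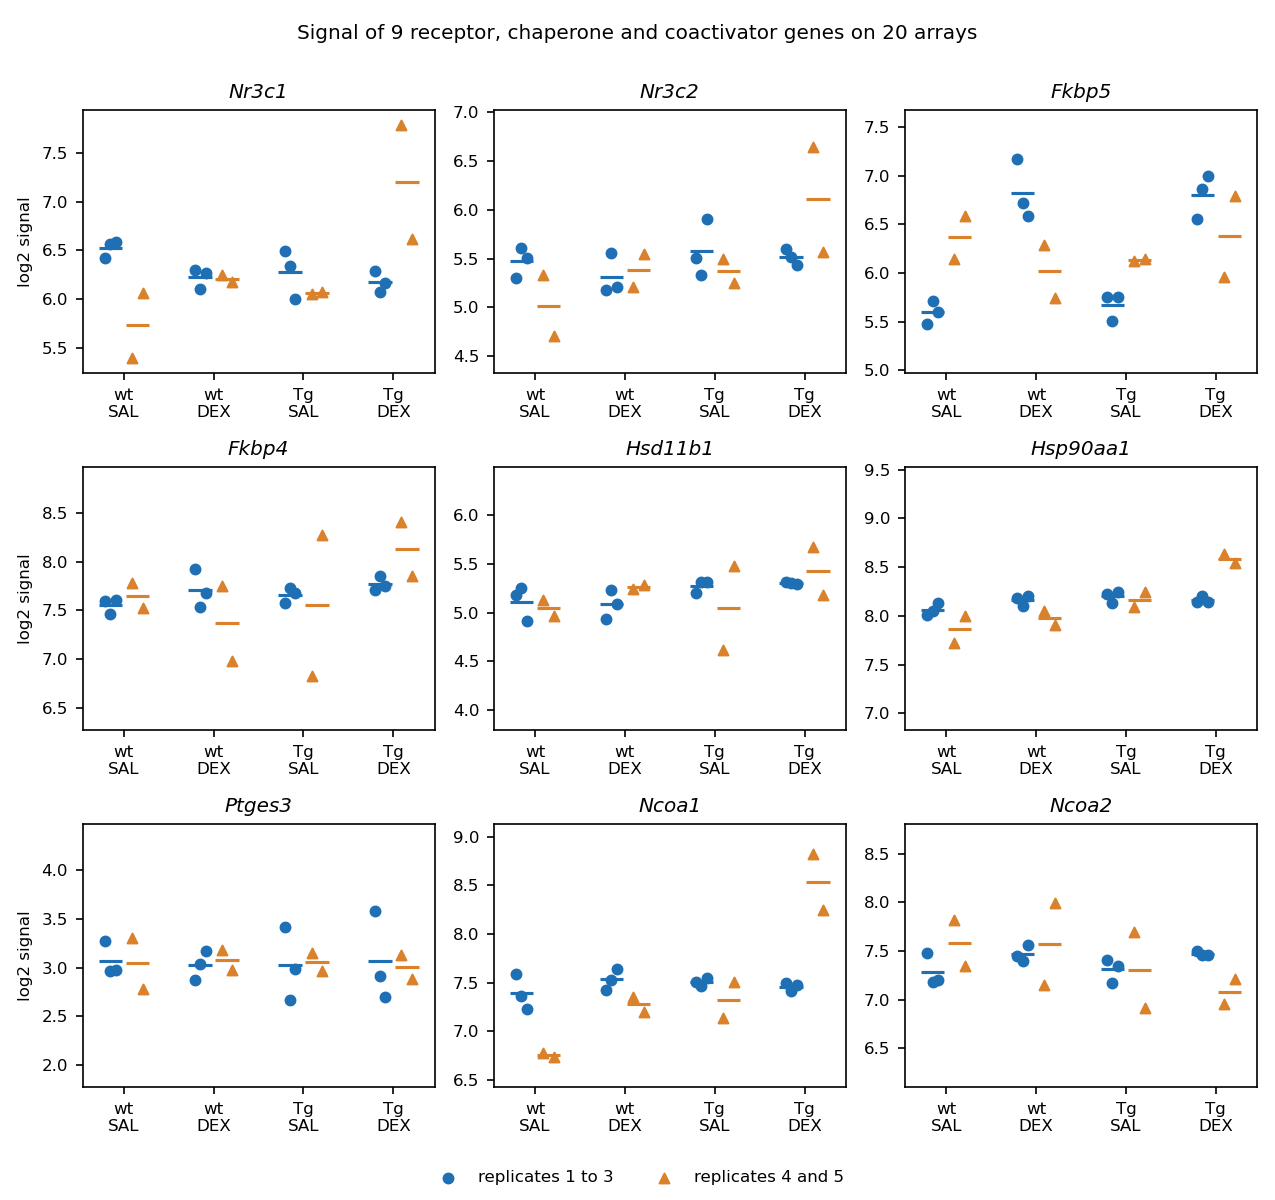
Log2 signal of each measured gene (1 panel per gene, its own y axis) in every array, by group on the x axis, with the 2 array sets marked separately. Fkbp5 Dex arrays of replicates 1 to 3 sit at 6.56 to 7.17, above saline at 5.48 to 5.75, and among replicates 4 and 5 array Tg DEX 4 is the highest point for Nr3c1, Nr3c2, Fkbp4, Hsd11b1, Hsp90aa1 and Ncoa1.

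The mean Dex effect of Fkbp5 was lower in replicates 4 and 5 than in replicates 1 to 3 by a difference of -1.23 ± 0.26 (95% interval -1.77 to -0.69, limma adjusted p = 0.0213). Fkbp5 and Ncoa1 were the 2 genes of 9 called for this difference, and 2.16% of all genes were called. The Fkbp5 difference ran from -1.44 to -1.02 when any 1 of the 20 arrays was left out. Its call held without any 1 array of replicates 1 to 3. The call was lost when arrays were weighted by their spread (adjusted p = 0.122) or each set was given its own variance (adjusted p = 0.107). Over all 20 arrays the mean Dex effect was 0.69 ± 0.18 (1.61-fold), and it missed the threshold (limma adjusted p = 0.306). By that fit 0 of the 9 genes were called, against 0.108% of all genes, and at an unadjusted p under 0.05 limma gave 2 of the 9 (Fkbp5 and Ncoa1), against 7.47%. With array weights it was 1.03 (adjusted p = 0.000191), and with a variance for each set 1.01 (adjusted p = 0.000317).

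By genotype over all 20 arrays, the Fkbp5 effect was 0.60 ± 0.26 in wt (limma adjusted p = 1.00) and 0.78 ± 0.26 in Tg (limma adjusted p = 0.572). None of the 9 genes was called in wt, against 0.0135% of all genes, or in Tg, against 0.00902%. At an unadjusted p under 0.05 limma gave Fkbp5 alone in each, against 4.5% and 8.5% of all genes. The interaction for Fkbp5 was 0.18, with a 95% interval of -0.58 to 0.94. Limma called 0% of all genes for the interaction and gave 4.91% at an unadjusted p under 0.05, none of them among the 9. Fkbp5 exceeded the mean of its own saline arrays, within genotype and array set, in 7 of 10 Dex arrays. The count was 8 for Fkbp4, Hsd11b1 and Hsp90aa1 and 7 for Ncoa1 and Ncoa2, none of which passed for Dex, so it does not set Fkbp5 apart.

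**Figure D2:**
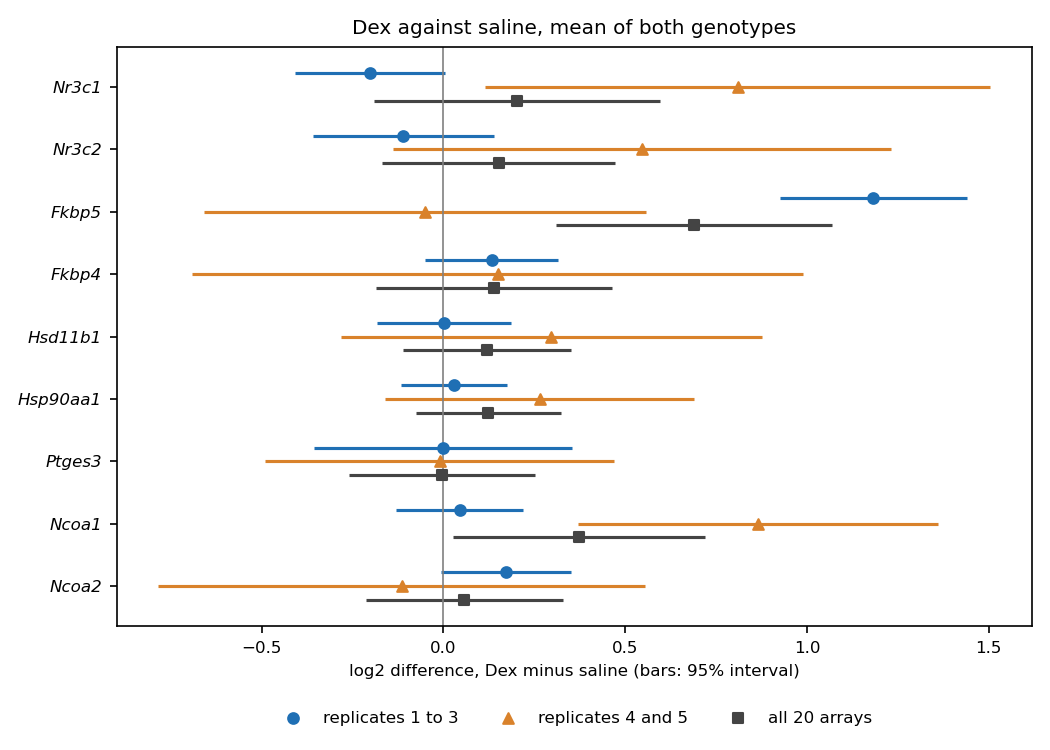
Mean Dex effect (log2 difference, Dex minus saline, averaged over genotypes) of each measured gene in replicates 1 to 3 and in replicates 4 and 5, with 95% intervals. Fkbp5 is at 1.18 in the first set and -0.05 in the second, while Ncoa1 is at 0.04 and 0.86.

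Other genes known as direct targets of the receptor were set beside Fkbp5, from a list of 14 chosen with earlier results of these data known. In replicates 1 to 3, 9 of the 14 rose and none fell, against 0.455% of all genes called, and the median effect was 0.63 against 0.00 over all genes. Those 9 were Sgk1, Zfp36, Klf9, Ddit4, Errfi1, Zbtb16, Cdkn1a, Mt2 and Nfkbia. Over all 20 arrays, where 0.108% of genes were called, 7 of the 14 rose: Sgk1, Zfp36, Ddit4, Errfi1, Zbtb16, Cdkn1a and Mt2. In replicates 4 and 5 none of the 14 passed, as for all genes, but 13 of them had an effect above 0 and their median was 0.71 against 0.04. By genotype there, the median was 0.24 in wt, with 11 of the 14 above 0, and 1.09 in Tg, with 13 above 0. The Dex arrays behind that Tg value are Tg DEX 4 and 5, which stood apart. In replicates 1 to 3 the median was 0.74 in wt and 0.63 in Tg.

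Pdk4, a mitochondrial kinase gene, was the 1 listed target that, like Fkbp5, had an effect below 0 in replicates 4 and 5 (-0.01 ± 0.25). Ddit4, which encodes a stress-induced inhibitor of mTOR signalling, had effects of 1.32 and 0.10 in the 2 sets, a difference of -1.22 that passed the test (limma adjusted p = 0.00546). Zfp36, which encodes a protein that destabilises inflammatory transcripts, had 1.44 and 0.37 (difference -1.07, limma adjusted p = 0.0318). Cdkn1a, which encodes the cell cycle inhibitor p21, went the other way, with 1.29 and 2.56 (difference 1.27, limma adjusted p = 0.0253). Sgk1 had 1.10 and 0.87, and its difference of -0.23 was not called (limma adjusted p = 0.762). In all, 6 of the 14 had the larger effect in replicates 1 to 3 and 8 in replicates 4 and 5.

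**Figure D3:**
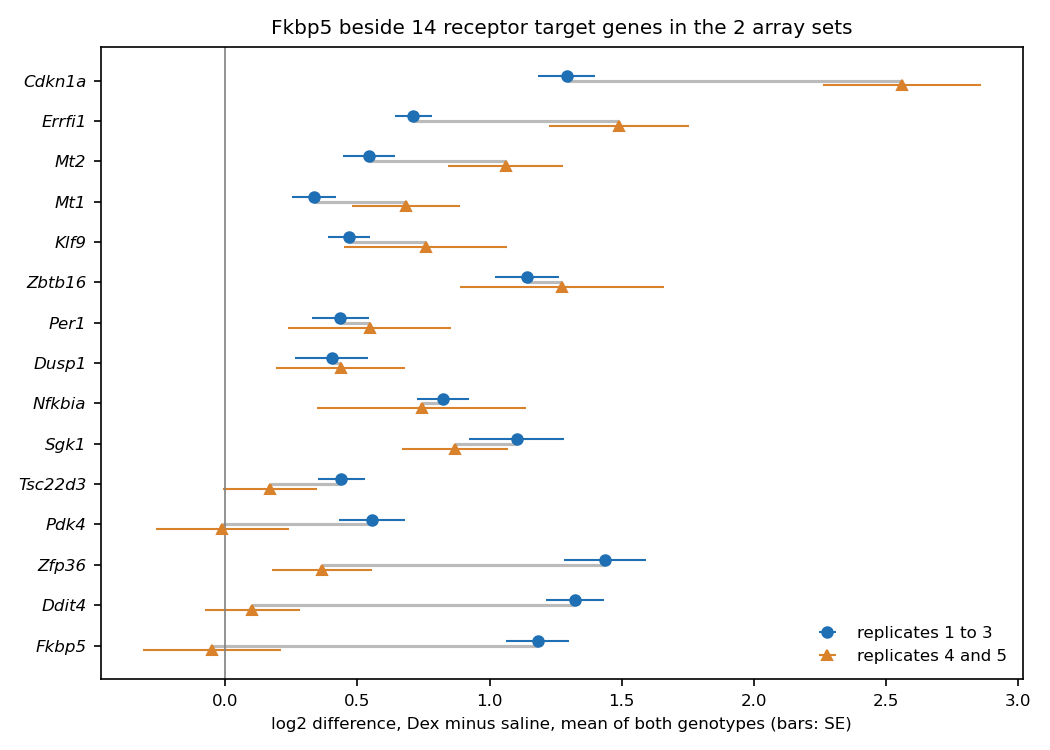
Mean Dex effect (log2 difference, x axis) of Fkbp5 and the 14 listed receptor targets, with 1 gene per row and standard errors as bars. Circles are replicates 1 to 3 and triangles replicates 4 and 5. In these sets Fkbp5 is at 1.18 and -0.05 and Ddit4 at 1.32 and 0.10, while Cdkn1a is at 1.29 and 2.56.

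Across the 20 arrays the genes whose signals followed Fkbp5 most closely were Setdb2, Depp1, Dclre1b, Xdh and Ddit4, with Pearson correlations of 0.89, 0.88, 0.88, 0.86 and 0.83. These arrays share 4 groups and 2 array sets, so the values describe a pattern and carry no p. Within replicates 1 to 3 they were 0.90 to 0.92, and within replicates 4 and 5 the correlation of Setdb2 was 0.79 and that of Ddit4 0.05. Setdb2, which encodes a histone methyltransferase relative, had Dex effects of 1.85 and 0.39 in the 2 sets. Xdh, the xanthine dehydrogenase gene, had 1.09 and 0.10.

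Of the cell type markers, those called for Dex in the same 12 arrays were endothelial. Of 6 endothelial markers measured, 0 had a mean Dex effect above 0 in replicates 1 to 3, and Tek (-0.96 ± 0.13, limma adjusted p = 0.00752) and Kdr (-0.95 ± 0.18, limma adjusted p = 0.0427) fell. Cldn5 (-0.24 ± 0.23), Flt1 (-0.23 ± 0.07), Cdh5 (-0.08 ± 0.18) and Pecam1 (-0.01 ± 0.09) were not called. In replicates 4 and 5 none of the 6 was called, and 5 had a mean Dex effect above 0, with a median of 0.14. Tek and Kdr were dim, with mean signals of 4.63 and 4.53 against a median of 4.68 over the genes tested. In the 12 arrays of replicates 1 to 3 the mean signal of the 6 markers ran from 5.78 to 5.93 in wt SAL, 5.11 to 5.45 in wt DEX, 5.55 to 5.95 in Tg SAL and 5.23 to 5.69 in Tg DEX. In the same 12 arrays none of 10 astrocyte markers was called, and 8 had an effect above 0, with a median of 0.08. None of the 6 meningeal fibroblast markers was called, and their median Dex effect was -0.76 in wt (0 of 6 above 0) and 0.19 in Tg (5 of 6 above 0). The 2 Schwann cell markers measured, also not called, had medians of -1.26 in wt and 0.10 in Tg. The part of these markers in the Fkbp5 result was not tested. In bulk tissue, fewer cells of a type and less RNA per cell cannot be told apart.

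Nr3c1, the receptor gene itself, did not pass the test in any comparison, including Tg against wt. Its signals in wt SAL replicates 1 to 5 were 6.43, 6.57, 6.58, 5.40 and 6.07, and in Tg SAL they were 6.49, 6.34, 6.01, 6.05 and 6.07. The genotypes overlapped in both array sets, with wt SAL 4 the lowest array of its set. Tg minus wt under saline was -0.02 ± 0.27 over all arrays (95% interval -0.57 to 0.54, limma adjusted p = 0.997). It was -0.25 in replicates 1 to 3 (95% interval -0.54 to 0.05, limma adjusted p = 0.888) and 0.33 in replicates 4 and 5. Whether the probes of this probe set lie in the deleted part of the gene is not given in the sources used here, so this value is no check of the genotype labels.

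After Dex the Nr3c1 signals were 6.30, 6.11, 6.27, 6.24 and 6.18 in wt and 6.29, 6.08, 6.17, 7.79 and 6.62 in Tg. In replicates 1 to 3 both Dex groups lay in a narrow band, 6.08 to 6.30. Dex minus saline there was -0.20 ± 0.09 (95% interval -0.41 to 0.01, limma adjusted p = 0.697). In replicates 4 and 5 it was 0.81 ± 0.30 (limma adjusted p = 0.434), and all 4 Dex arrays were above all 4 saline arrays, a separation with Dex higher that 1.9% of genes showed. The difference between the sets was 1.01 ± 0.27, just outside the threshold (limma adjusted p = 0.0583). It passed with the dimmest genes left out of the adjustment (adjusted p = 0.0450). It was 1.30 without Tg DEX 5 and 1.18 without wt SAL 5, fits that leave 1 array of that group in replicates 4 and 5. It was farther from the threshold with array weights (adjusted p = 0.157), a variance for each set (0.144) or quantile normalization (0.86, adjusted p = 0.0860), and over the fits without 1 array it ran from 0.72 to 1.30 with an adjusted p of up to 0.106.

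Nr3c2, the mineralocorticoid receptor gene, had signals of 5.30, 5.61, 5.51, 5.33 and 4.70 in wt SAL and 5.18, 5.56, 5.21, 5.21 and 5.55 in wt DEX. In Tg SAL they were 5.50, 5.33, 5.90, 5.50 and 5.25, and in Tg DEX 5.60, 5.51, 5.43, 6.65 and 5.57. Among replicates 4 and 5, Tg DEX 4 was the highest array and wt SAL 5 the lowest. Both Tg DEX arrays there were above the other 6, at 4.70 to 5.55, Tg DEX 5 only narrowly. The treatments overlapped in both sets. Dex minus saline was -0.11 ± 0.11 in replicates 1 to 3 (limma adjusted p = 0.930) and 0.55 ± 0.29 in replicates 4 and 5 (limma adjusted p = 0.602). The difference between the sets, 0.66 ± 0.28, was not called (limma adjusted p = 0.249). It was 0.93 without Tg DEX 5, a fit that leaves 1 array of that group in replicates 4 and 5. A second, dimmer probe set of Nr3c2 that was not tested lay between 3.65 and 4.49 in all 20 arrays, and on it Tg DEX 4 did not stand out, since the Tg DEX arrays reached 4.34 at most and those of replicates 4 and 5 lay at 3.85 and 4.01.

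Hsd11b1 encodes the enzyme that regenerates active corticosterone from its inert keto form inside cells. Its signals lay between 4.91 and 5.32 in the 12 arrays of replicates 1 to 3, and treatments and genotypes overlapped. Those of replicates 4 and 5 ran from 4.62 in Tg SAL 4 to 5.67 in Tg DEX 4. Its Dex effect was 0.00 ± 0.08 in replicates 1 to 3 (95% interval -0.18 to 0.19) and 0.12 ± 0.11 over all arrays (limma adjusted p = 0.796).

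Fkbp4, the gene of the immunophilin that replaces FKBP51, did not pass the test for a Dex effect. Its signals in replicates 1 to 3 were 7.60, 7.46 and 7.61 in wt SAL, 7.92, 7.53 and 7.68 in wt DEX, 7.58, 7.72 and 7.68 in Tg SAL, and 7.71, 7.85 and 7.75 in Tg DEX. The treatments overlapped, and the mean Dex effect was 0.13 ± 0.08 (95% interval -0.05 to 0.32, limma adjusted p = 0.822). Fkbp4 in replicates 4 and 5 ranged from 6.83 (Tg SAL 4) to 8.41 (Tg DEX 4), and its residual SD was 5.20 times that in replicates 1 to 3, against a median of 1.82 over all genes.

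Hsp90aa1 encodes the inducible Hsp90 isoform. Its signals in replicates 1 to 3 kept within 8.01 to 8.25 across all groups, the smallest residual SD of the 9 genes (0.05). Its mean Dex effect there was 0.03 ± 0.07 (95% interval -0.12 to 0.18). The 2 Tg DEX arrays of replicates 4 and 5, at 8.63 and 8.54, were above the other 6, at 7.73 to 8.25. Tg minus wt under Dex in those arrays was 0.61 ± 0.26 (limma adjusted p = 0.338), against 0.00 ± 0.09 in replicates 1 to 3. The probe set of Ptges3, the p23 gene, that carries this symbol alone was dim, with signals of 2.67 to 3.58 against a median of 4.68 over the genes tested. A pair of brighter probe sets, with means of 6.53 and 8.24, share their symbol with Ptges3-ps, so their signal cannot be assigned to either, and were left out. On the dim probe set the mean Dex effect was -0.00 ± 0.12 (95% interval -0.26 to 0.25, limma adjusted p = 0.993).

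Ncoa1, the gene of the coactivator SRC-1, had a Dex effect that differed between the array sets but passed the test in neither. Its signals in replicates 1 to 3 lay between 7.23 and 7.64, with a mean Dex effect of 0.04 ± 0.08 (limma adjusted p = 0.972). In replicates 4 and 5 they were 6.78 and 6.74 in wt SAL, 7.35 and 7.20 in wt DEX, 7.14 and 7.51 in Tg SAL, and 8.82 and 8.24 in Tg DEX. Within each genotype both Dex arrays were above both saline arrays, while over genotypes the treatments overlapped. The mean effect was 0.86 ± 0.21 (1.82-fold, limma adjusted p = 0.315), and the difference from replicates 1 to 3 was called at 0.82 ± 0.19 (limma adjusted p = 0.0362). With 1 array left out the difference ran from 0.68 to 0.96 and its adjusted p reached 0.0721. When 1 array of replicates 1 to 3 was left out, the call was lost in every fit except that without wt SAL 3. Fits without an array of replicates 4 and 5 leave 1 array in its group there, and their calls are not given. Quantile normalization gave 0.52 (adjusted p = 0.173), and the call was also lost with array weights (adjusted p = 0.172) and a variance for each set (adjusted p = 0.138). The difference was 1.26 within Tg alone (adjusted p = 0.0159) and 0.38 within wt alone (adjusted p = 0.761).

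Ncoa2, the gene of the coactivator GRIP1, did not pass either. In replicates 1 to 3 its signals were 7.48, 7.19 and 7.21 in wt SAL, 7.45, 7.40 and 7.57 in wt DEX, 7.41, 7.17 and 7.35 in Tg SAL, and 7.50, 7.46 and 7.46 in Tg DEX. The treatments overlapped, and the mean Dex effect was 0.17 ± 0.08 (95% interval -0.01 to 0.35, limma adjusted p = 0.701). Of the arrays of replicates 4 and 5, Tg SAL 5 was lowest, at 6.91, and wt DEX 5 highest. The effect there was -0.11 ± 0.29, and Tg DEX 4, at 6.96, was not high.

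Among the 8 arrays of replicates 4 and 5, Tg DEX 4 was the highest for 6 of the 9 genes (Nr3c1, Nr3c2, Fkbp4, Hsd11b1, Hsp90aa1 and Ncoa1). It was highest there for 22.8% of all genes, for 32.5% of the brighter genes and for 13.1% of the dimmer ones. Of the marker lists, those of astrocytes, oligodendrocytes, neurons and endothelial cells were higher on this array and on Tg DEX 5 than on the other 6 arrays of their set. The mean signal of the 10 astrocyte markers was 7.96 and 7.55 on these arrays against 6.75 to 7.32, that of 6 oligodendrocyte markers 8.61 and 8.21 against 7.45 to 7.97, and that of 8 neuronal markers 8.82 and 8.68 against 7.66 to 8.22. Endothelial markers were at 5.97 and 5.74 against 5.40 to 5.66. Microglial markers, at 5.21 and 5.56, lay within 4.96 to 5.58. Of 5 blood markers only 2 were measured, S100a8 and S100a9, both dim (mean signals 2.70 and 3.52). Their mean, at 3.01 and 3.03, lay within 2.76 to 4.21. Meningeal markers, at 7.01 and 5.79, and Schwann cell markers, at 7.08 and 5.65, were above the other 6 on Tg DEX 4 but not on Tg DEX 5. The 2 forebrain markers, at 3.67 and 3.40, lay below the other arrays, at 4.07 to 5.12. The part of these differences in the signals of the 6 genes was not tested. Without both arrays, the mean Dex effect over all arrays was -0.07 for Nr3c1 in place of 0.20, 0.09 for Ncoa1 in place of 0.37, and 0.80 for Fkbp5 in place of 0.69.

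Correlations between these genes also differed with and without the same arrays. Hsp90aa1 and Ncoa1 correlated with r = 0.89 over 20 arrays, 0.72 over the 18 without Tg DEX 4 and 5, and 0.12 in replicates 1 to 3. For Nr3c1 and Nr3c2 these values were 0.65, 0.10 and -0.28. Fkbp5 and Nr3c1 had -0.20 over 20 arrays and -0.56 in replicates 1 to 3. The closest genes to Nr3c1 over 20 arrays were Cpd, Sptbn1, Mbnl2, Chpt1 and Slain1 (r = 0.92 to 0.93). In replicates 1 to 3 their values ran from 0.06 for Mbnl2 to 0.75 for Cpd. Those closest to Hsp90aa1 were Appbp2, Vps41, Hgsnat, Lynx1 and Srp72, all at 0.95. In replicates 1 to 3 they ran from 0.00 for Vps41 to 0.57 for Hgsnat. All are descriptions over arrays that share groups and sets.

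No gene of the group was called for genotype, under saline or under Dex, and neither was any of the 22180 genes (0%). At an unadjusted p under 0.05, limma gave 4.44% of all genes under saline and 9.78% under Dex, and none of the 9. Under saline 5 of the 9 differences were above 0 (median 0.02 against 0.01 over all genes), and under Dex 7 of 9 (median 0.25 against 0.01). The largest under Dex was Ncoa1 at 0.46 ± 0.24 (95% interval -0.03 to 0.95, limma adjusted p = 0.522), with values of -0.07 within replicates 1 to 3 and 1.25 within the other set. Nr3c2 followed at 0.41 ± 0.22 and Nr3c1 at 0.37 ± 0.27.

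**Figure D4:**
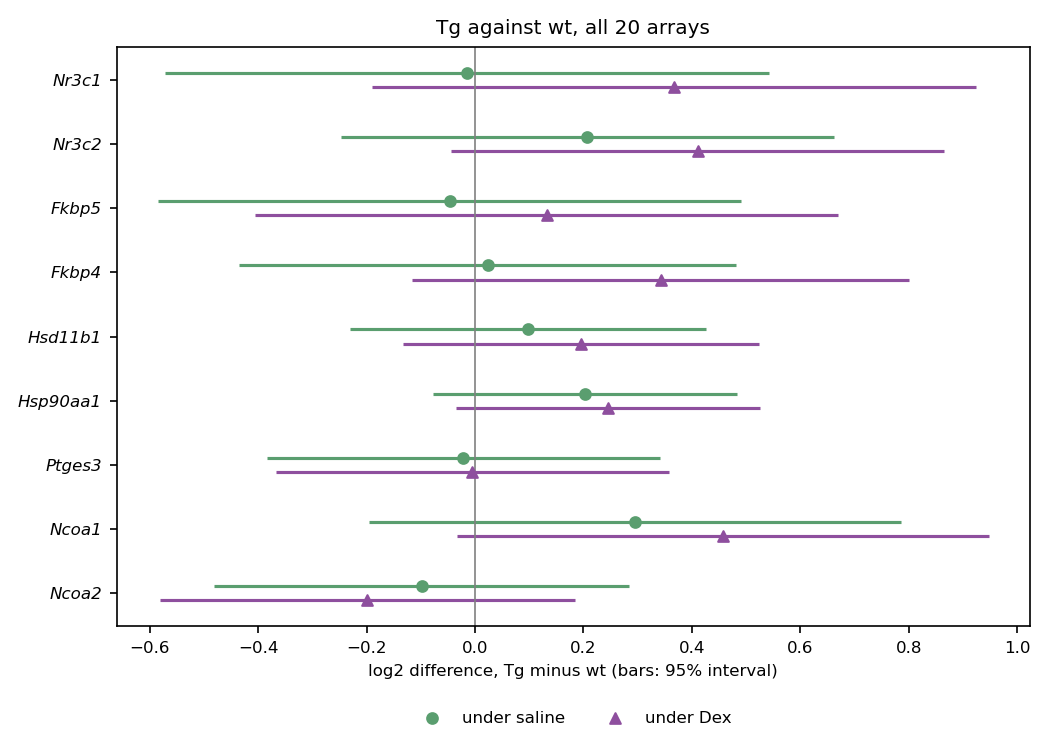
Tg minus wt (log2 difference, x axis) for each measured gene over all 20 arrays, under saline (circles) and under Dex (triangles), with 95% intervals. Every interval includes 0, and Ncoa1 and Nr3c2 under Dex, at 0.46 and 0.41, lie farthest from it.

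Lists of further genes around the receptor were read in the same fits. Of the Hsp70-Hsp90 assembly genes and co-chaperones 21 of 23 were measured, and none rose or fell after Dex over all arrays (median 0.08, against 0.02 over all genes). In replicates 1 to 3 none passed either and the median was -0.00. The difference between the sets was called for 2 of the 21, against 2.16% of all genes. It was 0.96 ± 0.24 for St13, the gene of the Hsp70-interacting protein Hip (limma adjusted p = 0.0409), and -0.78 ± 0.20 for Pdcl, a phosducin-like gene (limma adjusted p = 0.0498). The other immunophilins (13 of 14 measured) had a median of 0.08 with none called, and their smallest p values belonged to Fkbp14 at 0.34 ± 0.13, Fkbp7 at -0.27 ± 0.11 and Fkbp9 at 0.27 ± 0.16. In replicates 1 to 3 none of these 13 passed either, and their median was 0.06.

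Of 19 further coactivators, all measured, none passed (median 0.09), and Med13, a Mediator subunit gene, had 0.28 ± 0.18, Ep300, an acetyltransferase gene, 0.22 ± 0.16 and Carm1, an arginine methyltransferase gene, -0.19 ± 0.14. Of 11 corepressors and brakes 9 were measured and none passed. Their median was 0.13 over all arrays, -0.01 in replicates 1 to 3 and 0.53 in replicates 4 and 5, where all 9 were above 0. By genotype in replicates 4 and 5, it was -0.06 in wt, with 3 of the 9 genes above 0, and 1.13 in Tg, with all 9 above 0. The Dex arrays behind that Tg value are Tg DEX 4 and 5, which stood apart. In replicates 1 to 3 the median was -0.07 in wt and -0.03 in Tg. Among the 9 genes Nrip1, the gene of the corepressor RIP140, had 0.04 ± 0.09 and 0.87 ± 0.24 in the 2 sets (limma adjusted p of the difference 0.0601). Genes of corticosteroid metabolism and transport (9 of 11 measured, median 0.10) and of nuclear import and receptor relatives (11 of 13 measured, median 0.03) gave no call. Serpina6, the gene of corticosteroid-binding globulin, had -0.33 ± 0.21, and Kpnb1, the importin beta gene, 0.25 ± 0.19.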

How the data were processed

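Spinal cord RNA from 20 mice was measured on 20 arrays, 1 per sample. The values that the authors deposited are log2 signals per probe set. The submitters' processing notes name oligo, and its version, the normalization, the genome build and the annotation are not given in the sources used here. All arrays had the same mean (4.64). For each probe set the means of replicates 1 to 3 and of replicates 4 and 5 were equal (largest difference 4.5e-09), so levels cannot be compared between these array sets, which the labels do not mention.

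Of 41345 probe sets, 23521 carried 1 gene symbol, 1814 several and 16010 none. The brightest single-symbol probe set stood for each of 22180 genes. Group means with the array set as a block were fitted to the log2 values with limma 3.58.1 in R 4.3.3 (15 residual degrees of freedom), and separately within each set. A fit with a mean per group and set tested the difference between sets. Benjamini-Hochberg adjustment ran over all genes. The fit was tested on simulated data with 1 spread per gene for all arrays, so the unequal spread of the array sets was not covered. P-values set differences of group means against the spread between these samples, which fits over all arrays pool over both sets.

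The genes, the lists around them and the tests were chosen with earlier results of these data known. Named are the listed genes, list genes that were called or had the 3 smallest p values of the mean Dex effect, and the 5 genes most correlated with Fkbp5, Nr3c1 and Hsp90aa1. Replicate numbers shared by the groups were not taken as pairs. Alternatives were the block, weights, normalization, filter, probe set, threshold, samples in the fit and each array left out. Probe sets with several symbols were left out.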

Additional observations from a re-analysis of the deposited data

Results flagged for a closer look

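The Nr3c2 signal in Tg DEX replicate 4 was 6.65, far above the other 4 arrays of its group, at 5.43 to 5.60. Fkbp4 was 8.41 on the same array, with the others at 7.71 to 7.85, and Hsd11b1 was 5.67, with the others at 5.18 to 5.32. Ncoa1 in Tg SAL replicate 4 was 7.14, below the other 4 at 7.47 to 7.55. For groups of like arrays chance sets an array apart in this way in about 1 in 20 groups. These groups, however, mix 2 array sets of unequal spread, between which levels cannot be compared. All 4 values are from replicate 4, in the set with the larger spread. Within replicates 4 and 5 alone, Tg DEX 4 was the highest array for Nr3c2, Fkbp4 and Hsd11b1. Ncoa1 ran from 6.74 to 8.82 there, so Tg SAL 4 was not its lowest array. The mean Dex effect of Fkbp5 differed between the array sets by -1.23 (replicates 4 and 5 minus replicates 1 to 3), and that of Ncoa1 by 0.82, each called by limma's test of the difference.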

How the results depend on the processing

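Of 2241 values of these genes recomputed under 14 settings and with each of 20 arrays left out, 2206 stayed on their side of the threshold, 24 lost a call, 11 gained one, and no called value changed sign, while 200 values that were never called did. Array weights gave 1 called gene (Fkbp5) for the Dex effect in wt, in Tg and in the mean, and 0 for the difference between array sets. A variance for each set gave 1 (Fkbp5) in wt and in the mean, and 0 for that difference. Within replicates 1 to 3 the count was 1 in wt and 1 in the mean. For the difference between sets, quantile normalization left 1 (Fkbp5) and a threshold of 0.01 left 0. Leaving out 1 array of replicates 1 to 3 left as few as 1 (Fkbp5). Leaving out 1 of replicates 4 and 5 left 1 array in its group there, and such counts are not given. Without Tg DEX 5 the difference was 1.30 for Nr3c1 and 0.93 for Nr3c2. Within wt alone the count was 0, with 27 of all genes called. Within Tg alone it was 1 (Ncoa1), with 1000 of all genes called. Both of these fits were chosen after seeing the data. The cause was not tested. Over all genes, the mean Dex effect gave 24 calls, 132 with array weights and 111 with a variance for each set, and the difference between sets 479, 28 and 50, with 185 after quantile normalization and 67 at 0.01. The replicate block changed no call among these genes (Fkbp5 in replicates 1 to 3, adjusted p = 0.00738). Deviations of arrays from the mean of their group and set were correlated between groups. Same-numbered arrays gave -0.11 to 0.11 over 30 pairs and differently numbered ones -0.15 to 0.13 over 48. The numbers were therefore not taken as pairs, although these values cannot exclude a weak pairing. Precision is limited by the number of arrays and, for Ptges3, by dim signal.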
